A study of Mus musculus with 27 samples.

Results

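The smooth muscle contractile genes are 10 genes of the actin, myosin, calponin, caldesmon and tropomyosin families and of the muscle intermediate filament: Acta2, Actg2, Myh11, Myl9, Cnn1, Tagln, Cald1, Tpm1, Tpm2 and Des. They are a chosen part of that apparatus, picked with earlier results of these data known, and 28 further measured genes of it are read separately. The symbol of each of the 10 genes stands alone on a probe set of the array. This gave 10 of 18193 measured genes and 24 of 34945 probe sets with 1 gene symbol. Each gene was read by its brightest probe set, and other probe sets are given where they passed a test that the brightest did not.

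Messenger RNA was measured on 27 arrays of mouse embryonic fibroblasts, 3 arrays for each of 9 groups. The cells came from 3 lines. Line R is labelled as the PKBalpha knockout with PKBalpha put back, the knockout line lacks PKBalpha, and the wild-type line has it. PKBalpha is the protein kinase encoded by Akt1. Each line was untreated, or taken 4 h or 24 h after 10 Gy of gamma radiation, and the series asks how these cells respond to irradiation. All groups shared female sex, passage 45 and medium with 10% fetal calf serum. The irradiated cells had been cultured for 24 h before the dose, while the time in culture of untreated cells is not given, so irradiation and time in culture cannot be told apart. The labels call the arrays biological replicates. Each genotype is 1 line, so a difference between lines cannot be told apart from a difference of genotype, and p values measure the spread within a line.

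Smooth muscle cells contract when myosin, switched on by phosphorylation of its regulatory light chain, pulls on filaments of smooth muscle actin that carry tropomyosin, caldesmon and calponin. Most of these genes are known targets of serum response factor, which binds CArG boxes and is helped by myocardin and the myocardin-related factors. Fibroblasts in culture, and myofibroblasts in healing wounds, make part of the same set, above all alpha smooth muscle actin and transgelin, while the smooth muscle myosin heavy chain is a marker of differentiated smooth muscle.

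In these fibroblasts Actg2, Myl9, Cnn1 and, by a small margin, Tpm1 differed between untreated lines, and no gene of the set passed the test of irradiated against untreated cells. Actg2 was 18.6-fold higher and Myl9 13.9-fold higher in untreated knockout cells than in wild-type cells, while Cnn1 was 8.43-fold lower. Line R read between the knockout and the wild type for Myl9, below the knockout for Actg2, and below both for Cnn1, which lay under the background level on all 9 arrays of line R. Acta2, Tagln, Cald1, Tpm1 and Tpm2 were bright on every array and differed between lines by less than 1.5-fold in untreated cells. Myh11 was under the background level on all 27 arrays.

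Levels are linear intensities and group levels are geometric means of 3 arrays. Differences are log2 values, given ± the standard error from limma. A gene was called at a Benjamini-Hochberg adjusted p below 0.05 over all 18193 genes, two-sided. The background level of 48.3 is the highest of 243 readings of 9 probe sets of Y-linked genes, and 10577 to 11682 genes per array lay above it. On 5 arrays the ratio of the 3' to the 5' control probe sets stood apart (the log2 ratio of Gapdh spanned -0.187 to 0.16 there and -0.466 to -0.298 on the remaining 22). They were replicates 1 of untreated line R, 2 of line R at 24 h, 2 of untreated knockout cells, 2 of untreated wild-type cells and 0 of wild-type cells at 4 h. Akt1 averaged 21 in line R, 21.5 in the knockout and 3549 in the wild type (9 arrays each), and lay under the background level on all 9 arrays of line R. In untreated cells the test of line R against the knockout gave an adjusted p of 0.86, so the Akt1 reading does not show the PKBalpha that the label of line R names. In a bulk sample fewer cells that express a gene and less RNA per cell cannot be told apart.

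Acta2 encodes alpha smooth muscle actin, the main actin of vascular smooth muscle and of myofibroblasts. It read 20710, 32190 and 22790 in untreated line R (replicates 0, 1 and 2), 32030, 33230 and 34060 in untreated knockout cells, and 25490, 22870 and 23520 in untreated wild-type cells. The knockout arrays lay above all wild-type arrays, and replicate 1 of line R, whose control ratios stood apart, lay at the knockout level. The difference between knockout and wild-type cells was 0.47 ± 0.18 (adjusted p = 0.091, 0.0023 to 0.24 over the alternatives, past the threshold in 4 of 16), that between line R and the knockout was -0.42 ± 0.18 (adjusted p = 0.27), and that between line R and the wild type was 0.05 ± 0.18 (adjusted p = 0.91). Its brightest probe set has the ending that marks probes shared by several transcripts, and what other actin transcripts add to it was not tested. A dimmer Acta2 probe set (69.2 to 554 over the 27 arrays) differed between knockout and wild-type cells by 1.31 ± 0.47 (adjusted p = 0.091 over probe sets) in untreated cells and by 1.87 ± 0.47 at 4 h (adjusted p = 0.014). The other dim Acta2 probe set, of like brightness (67.9 to 400, above the background level on all 27 arrays), gave 0.26 ± 0.54 in untreated cells (adjusted p = 0.87) and 0.51 ± 0.54 at 4 h (adjusted p = 0.71), so the dim probe sets of Acta2 disagree.

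Actg2 encodes gamma smooth muscle actin, the actin of the gut and other visceral muscle. It read 176, 652 and 233 in untreated line R, 2034, 2008 and 4584 in untreated knockout cells, and 157, 94.9 and 195 in untreated wild-type cells. Every knockout array lay above every array of the other 2 lines, whose ranges overlapped. The difference between the knockout and the wild type was 4.22 ± 0.54 (18.6-fold, adjusted p = 9.3e-06). Line R stood 8.88-fold below the knockout (-3.15 ± 0.54, adjusted p = 0.0022) and 1.07 ± 0.54 above the wild type (adjusted p = 0.20).

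Myl9 encodes the regulatory light chain of smooth muscle myosin, the site at which phosphorylation starts contraction. It read 3889, 7304 and 4114 in untreated line R, 9762, 9566 and 11990 in untreated knockout cells, and 756, 1091 and 501 in untreated wild-type cells, so that the 3 lines did not overlap. Myl9 was 13.9-fold higher in knockout than in wild-type cells (3.80 ± 0.29, adjusted p = 9.7e-09) and 6.56-fold higher in line R than in wild-type cells (2.71 ± 0.29, adjusted p = 8.7e-07). Line R stood 2.12-fold below the knockout (-1.09 ± 0.29, adjusted p = 0.04). That last call is weak. It was lost without any 1 of replicates 0 and 2 of line R or of replicates 0, 1 and 2 of the knockout (adjusted p = 0.084 to 0.16), and it passed under 6 of 16 alternatives.

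Myh11, the smooth muscle myosin heavy chain that these light chains bind, read 1.95 to 42.1 by its brightest probe set and 2.7 to 39.7 by the other. Neither probe set rose above the background level on any of the 27 arrays, so no fold is given for it.

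The promoters of Acta2 and Myl9 are shown because these are the actin and the light chain of the set for which a RefSeq window held a match to the CArG box, the binding sequence of serum response factor. The box searched was a pair of C, 6 letters that are each A or T, and a pair of G, on both strands, exactly or with 1 of the 6 inner letters off. The windows run from 250 bases before to 50 bases after the annotated start in build GRCm38.p6, on the strand of the gene, 5′ to 3′, with matches in capitals. Acta2 lies at chr19:34255324-34255623 on the minus strand and Myl9 at chr2:156775214-156775513 on the plus strand.
Acta2: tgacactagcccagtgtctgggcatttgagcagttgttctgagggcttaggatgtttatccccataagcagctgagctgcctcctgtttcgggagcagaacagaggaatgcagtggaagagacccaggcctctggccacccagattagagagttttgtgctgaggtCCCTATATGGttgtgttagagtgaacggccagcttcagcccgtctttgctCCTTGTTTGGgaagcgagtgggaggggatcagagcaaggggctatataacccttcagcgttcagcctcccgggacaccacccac
Myl9: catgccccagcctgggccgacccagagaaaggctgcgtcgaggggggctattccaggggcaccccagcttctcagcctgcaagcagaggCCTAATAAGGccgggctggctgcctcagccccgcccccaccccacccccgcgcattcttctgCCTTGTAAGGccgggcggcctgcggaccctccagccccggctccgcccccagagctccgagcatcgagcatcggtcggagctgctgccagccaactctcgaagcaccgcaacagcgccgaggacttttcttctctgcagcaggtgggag
The Myl9 window holds 1 exact box, which begins at base -161 from the start, and 1 box with 1 letter off at -99. The Acta2 window holds 2 boxes with 1 letter off, at -84 and -34. Windows were at hand for 7 of the 10 genes, and the windows of Cnn1, Cald1, Tpm1, Tpm2 and Des held no such match. Of 32851 windows of 300 bases, 1.63% held an exact box and 9.98% held one with up to 1 letter off. A match describes these letters and not a site in use.

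Cnn1 encodes calponin, which binds actin and slows the myosin motor. It read 6.96, 10.7 and 3.82 in untreated line R, 141, 135 and 193 in untreated knockout cells, and 1590, 1157 and 1200 in untreated wild-type cells. The 3 lines did not overlap, and line R lay wholly under the background level. Knockout cells had 8.43-fold less Cnn1 than wild-type cells (-3.08 ± 0.52, adjusted p = 0.00023), the opposite direction to Actg2 and Myl9. Line R lay at least 3.2-fold below the knockout (adjusted p = 3.9e-05). Its distance below the wild type was at least 26.9-fold (adjusted p = 2e-09), both counted from the background level as a ceiling.

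Tagln encodes transgelin, an actin-bundling protein used as an early marker of smooth muscle. It read 7613, 14940 and 5882 in untreated line R, 12450, 12180 and 14350 in untreated knockout cells, and 12360, 9546 and 11630 in untreated wild-type cells. The highest reading, in line R, was on the array whose control ratios stood apart, and the lines overlapped. The differences were -0.57 ± 0.28 for line R against the knockout (adjusted p = 0.35), -0.35 ± 0.28 for line R against the wild type (adjusted p = 0.47) and 0.22 ± 0.28 for the knockout against the wild type (adjusted p = 0.68). Without replicate 1 of untreated line R, the second of these was -0.73 and passed (adjusted p = 0.048, 0.014 to 0.93 over the alternatives).

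Cald1 encodes caldesmon, which holds myosin off actin until calcium signals release it. It read 14700, 20480 and 13670 in untreated line R, 15580, 14160 and 20240 in untreated knockout cells, and 10750, 11040 and 12700 in untreated wild-type cells. Both altered lines lay above all wild-type arrays. The differences from the wild type were 0.48 ± 0.19 for line R (adjusted p = 0.081) and 0.52 ± 0.19 for the knockout (adjusted p = 0.06). Without replicate 1 of the untreated knockout the second was 0.63 (adjusted p = 0.048), and over the alternatives its adjusted p ran from 0.00031 to 0.59.

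The tropomyosins lie along the actin filament and gate the access of myosin. Tpm1 read 11600, 11180 and 11890 in untreated line R, 12660, 12470 and 13180 in untreated knockout cells, and 16330, 15920 and 13210 in untreated wild-type cells. The 3 lines did not overlap, although replicate 2 of the wild type came within reach of the knockout. Line R had 1.31-fold less Tpm1 than wild-type cells (-0.39 ± 0.10, adjusted p = 0.0091), and the difference between the knockout and the wild type was -0.24 ± 0.10 (adjusted p = 0.11). Leaving out replicate 2 of the wild type gave -0.34 for the knockout (adjusted p = 0.026, 0.018 to 0.95 over the alternatives), and leaving out replicate 0 gave -0.33 for line R (adjusted p = 0.055). Averaging all 4 Tpm1 probe sets gave -0.37 for line R (adjusted p = 0.61), and equal array medians gave -0.26 (adjusted p = 0.26). The dimmest of the 4 was under the background level on all 27 arrays. The others gave -0.39, -0.39 and -0.63 for line R against the wild type (adjusted p = 0.04, 0.58 and 0.29 over probe sets). Tpm2 read 5544, 13490 and 5675 in untreated line R, 7002, 7466 and 10490 in untreated knockout cells, and 8073, 7317 and 11130 in untreated wild-type cells. In each line the highest of the 3 was the array whose control ratios stood apart, and no difference between lines passed (adjusted p = 0.73 to 0.92).

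Des encodes desmin, the intermediate filament of muscle. It read 13.1, 91.5 and 110 in untreated line R, 15.1, 38 and 63.1 in untreated knockout cells, and 57.2, 78.4 and 97.1 in untreated wild-type cells, all close to the background level. It lay above that level on 8 of 9 arrays of line R, 1 of 9 of the knockout and 8 of 9 of the wild type over all times. No difference in untreated cells passed (adjusted p = 0.42 to 0.82).

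**Figure D1:**
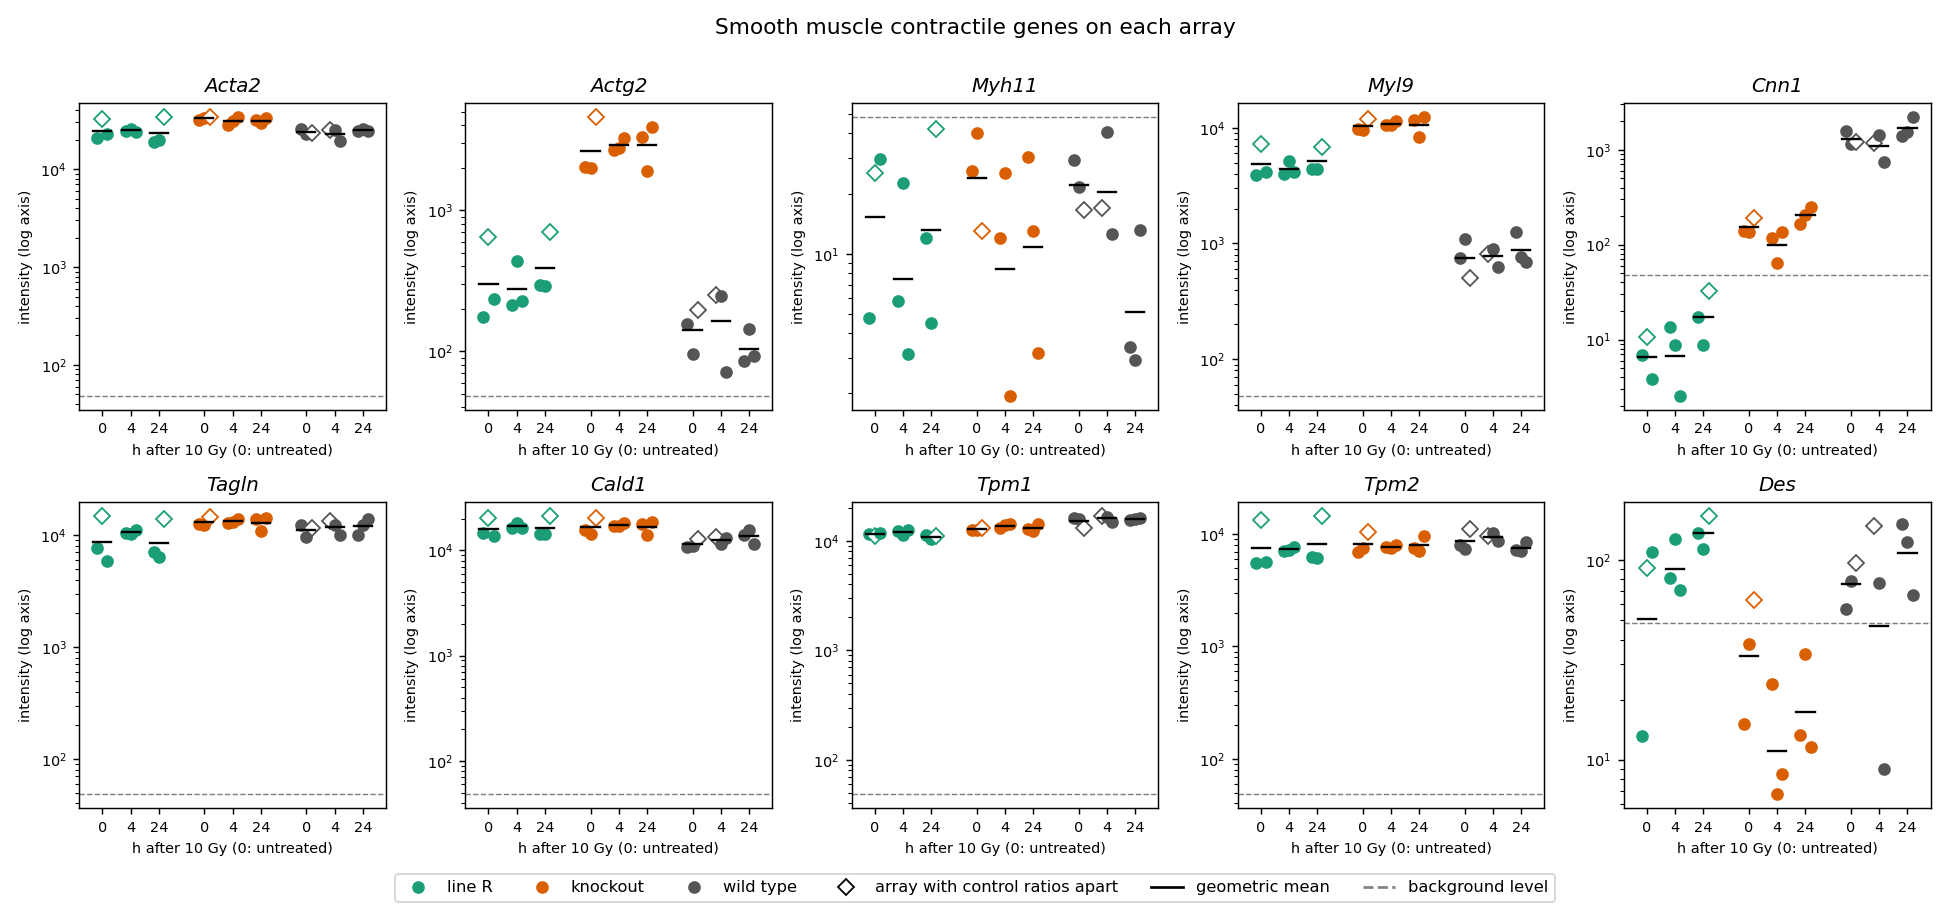
Intensity (log axis) of the 10 genes on each of the 27 arrays, with line R, the knockout and the wild type from left to right and, within each line, untreated cells (0) and cells 4 h and 24 h after 10 Gy; black bars are geometric means of 3 arrays, the dashed line is the background level of 48.3 and open diamonds are the 5 arrays whose control ratios stood apart. Myl9 and Cnn1 separate the 3 lines at every time, Actg2 separates the knockout from the other lines, and Myh11 stays under the dashed line throughout.

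Counted over the set, 3 of 10 genes were called in untreated line R against the knockout (Actg2, Cnn1 and Myl9, all lower), where 3.79% of all genes were called, 2.18% higher and 1.62% lower. In untreated line R against the wild type 3 of 10 were called (Myl9 higher, Cnn1 and Tpm1 lower), where 18.8% of all genes were called, 9.39% higher and 9.39% lower. The untreated knockout against the wild type also had 3 of 10 called (Actg2 and Myl9 higher, Cnn1 lower), where 17.6% were called, 7.77% higher and 9.83% lower. A set of 10 moves in steps of 10 percentage points, so the counts against the wild type are about 1 gene above the share over all genes. The groups did not overlap for 4, 4 and 6 of the 10 genes in these 3 comparisons, against 17.5%, 28.7% and 29.3% of all genes. The median differences of the set were -0.49, -0.28 and 0.17 in these 3 comparisons, against 0.05, 0.06 and -0.00 over all genes. The medians of the set include Myh11, whose readings under the background level carry no order. The comparisons share their untreated arrays.

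The calls changed with the arrays that entered the fit. On the 6 compared arrays alone 16 genes in all were called between line R and the knockout, and 0 of the 10 passed limma's test there. Actg2, Cnn1 and Myl9 kept an unadjusted p below 0.05, as did 1840 of all 18193 genes. Line R against the wild type kept 2 of its 3 calls on its own 6 arrays, Cnn1 and Myl9, where 1127 of 18193 genes were called. Tpm1 did not reach an unadjusted p below 0.05 there (adjusted p = 0.33). Without the 5 arrays whose control ratios stood apart, 5 of 10 genes were called in each of the 3 comparisons, where 3.81% of all genes were called for line R against the knockout, 21.7% for line R against the wild type and 20.8% for the knockout against the wild type. Acta2 (-0.59, adjusted p = 0.02) and Tagln (-0.88, adjusted p = 0.018) were then also lower in line R than in the knockout. Tagln (-0.70, adjusted p = 0.014) and Tpm2 (-0.45, adjusted p = 0.027) were also lower in line R than in the wild type. Acta2 (0.43, adjusted p = 0.024) was also higher and Tpm1 (-0.36, adjusted p = 0.018) also lower in knockout than in wild-type cells. Over all alternatives the adjusted p of these 6 differences ran from 0.02 to 0.62, 0.018 to 0.76, 0.014 to 0.93, 0.027 to 0.99, 0.0023 to 0.24 and 0.018 to 0.95, in the order given.

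Actg2, Cnn1 and Myl9 were also called between lines after irradiation. At 4 h the called genes were Actg2, Cnn1 and Myl9 in line R against the knockout (3 of 10, against 3.38% of all genes), Cnn1, Myl9 and Tpm1 in line R against the wild type (3 of 10, against 16.1%), and Actg2, Cnn1 and Myl9 in the knockout against the wild type (3 of 10, against 14.8%). At 24 h the calls in line R against the knockout were the same 3 genes (against 5.27%). Actg2 joined Cnn1, Myl9 and Tpm1 in line R against the wild type (4 of 10, against 20.7%), and Des joined Actg2, Cnn1 and Myl9 in the knockout against the wild type (4 of 10, against 18.7%). Groups did not overlap for 7, 5 and 7 genes at 4 h (30.4%, 35.8% and 35.8% of all genes) and for 5, 4 and 6 genes at 24 h (24.1%, 36.8% and 36.6%), in the same order of comparisons.

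Actg2 in the knockout reached 2663, 2777 and 3258 at 4 h and 3321, 1895 and 3918 at 24 h, against 251, 247 and 70.9 and then 85.3, 143 and 92.6 in the wild type. The gap between the lines was 17.6-fold at 4 h (4.14 ± 0.54, adjusted p = 1.4e-05) and 27.9-fold at 24 h (4.80 ± 0.54, adjusted p = 1.8e-06). In line R it read 214, 434 and 227 at 4 h and 295, 291 and 706 at 24 h, where it stood 3.77-fold above the wild type (1.92 ± 0.54, adjusted p = 0.014). That call was lost without replicate 2 of line R (1.49, adjusted p = 0.088) and without replicate 0 of the wild type (1.77, adjusted p = 0.054). The change in this gap after 24 h, tested as an interaction, was 0.85 ± 0.76 (adjusted p = 0.99).

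Cnn1 read 117, 63.6 and 135 in knockout cells at 4 h and 166, 204 and 251 at 24 h, against 1183, 1434 and 749 and then 1412, 1536 and 2208 in wild-type cells. In line R all 6 irradiated arrays read 2.56 to 32.6, under the background level. Knockout cells had 10.8-fold less Cnn1 than wild-type cells at 4 h (adjusted p = 8.4e-05) and 8.26-fold less at 24 h (adjusted p = 0.00025). Line R lay at least 22.4-fold below the wild type at 4 h and at least 34.9-fold below it at 24 h (adjusted p = 4.5e-09 and 1.5e-08).

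Myl9 stayed within 3986 to 6794 on the irradiated arrays of line R, 8245 to 12360 on those of the knockout and 630 to 1249 on those of the wild type. Knockout cells had 14-fold more Myl9 than wild-type cells at 4 h (adjusted p = 1.1e-08) and 12.2-fold more at 24 h (adjusted p = 2.1e-08). Line R stood 2.47-fold below the knockout at 4 h (adjusted p = 0.015) and 2.08-fold below it at 24 h (adjusted p = 0.039). Leaving out 1 array moved these to adjusted p values of 0.054 to 0.069 for replicates 0 and 2 of line R and 1 and 2 of the knockout at 4 h. At 24 h it moved them to 0.13 to 0.14 for replicates 0 and 1 of line R and 0 and 2 of the knockout.

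Des at 24 h read 136, 113 and 167 in line R, 13.3, 33.9 and 11.6 in the knockout, and 152, 124 and 67.2 in the wild type. The knockout arrays were all under the background level and the other 6 were above it, which put Des in knockout cells at least 2.24-fold below wild-type cells (adjusted p = 0.039). The call was lost without replicate 0 or 2 of the knockout (adjusted p = 0.11 and 0.13) or replicate 0 or 1 of the wild type (adjusted p = 0.12 and 0.1). It was also lost with single probe sets tested (adjusted p = 0.059). The other Des probe set, above the background level on 1 of 27 arrays, gave -0.005. Line R was at least 2.84-fold above the knockout at 24 h, which missed the threshold (adjusted p = 0.051). It was called without replicate 1 of the knockout (adjusted p = 0.05 after rounding up from just under the threshold, 0.01 to 0.17 over the alternatives). At 4 h the knockout against the wild type was called without replicate 2 of the wild type (adjusted p = 0.0082, against 0.13 with it, 0.0082 to 0.47 over the alternatives). The knockout arrays were under the background level at both times, so no difference is given for these.

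Tpm1 in line R stayed below the wild type, at 12380, 11240 and 12600 at 4 h and 11210, 10290 and 11010 at 24 h, against 17040, 16410 and 14780 and then 15480, 15810 and 16280 in the wild type. The groups did not overlap at either time. The differences were -0.41 ± 0.10 (1.33-fold, adjusted p = 0.0065) and -0.55 ± 0.10 (1.46-fold, adjusted p = 0.00042). With the mean of all Tpm1 probe sets the adjusted p values were 0.27 and 0.59, the highest of any alternative. The dimmest of these probe sets was under the background level on all 27 arrays. The second brightest gave -0.33 at 4 h and -0.92 at 24 h (adjusted p = 0.69 and 0.083 over probe sets). The third (633 to 2350, above the background level on all 27 arrays) gave -0.23 and 0.14 (adjusted p = 0.8 and 0.87), the opposite direction at 24 h. The knockout against the wild type at 24 h gave -0.27 ± 0.10 (adjusted p = 0.07), and -0.33 without replicate 2 of the knockout (adjusted p = 0.048, 0.023 to 0.74 over the alternatives).

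Replicate 2 of line R at 24 h, whose control ratios stood apart, read 33850 for Acta2 and 13800 for Tagln, against 18800 and 19880 for Acta2 and 7079 and 6316 for Tagln on replicates 0 and 1. Without it Acta2 in line R was lower than in the knockout at 24 h (-0.70, adjusted p = 0.019, 0.0032 to 0.55 over the alternatives). Tagln was then lower in line R than in the wild type (-0.84, adjusted p = 0.032, 0.0019 to 0.61 over the alternatives). With all arrays these differences were -0.43 and -0.49 (adjusted p = 0.21 and 0.25).

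Other probe sets of Cald1 and Tpm2 passed where the brightest did not. A Cald1 probe set above the background level on all 27 arrays was higher in the knockout than in wild-type cells at 4 h (0.58 ± 0.17, adjusted p = 0.034 over probe sets), against 0.46 by the brightest (adjusted p = 0.12). A dim Tpm2 probe set (158 to 958 over the 27 arrays) was higher in line R than in wild-type cells at 24 h (1.47 ± 0.38, adjusted p = 0.011 over probe sets), against 0.11 by the brightest (adjusted p = 0.86).

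**Figure D2:**
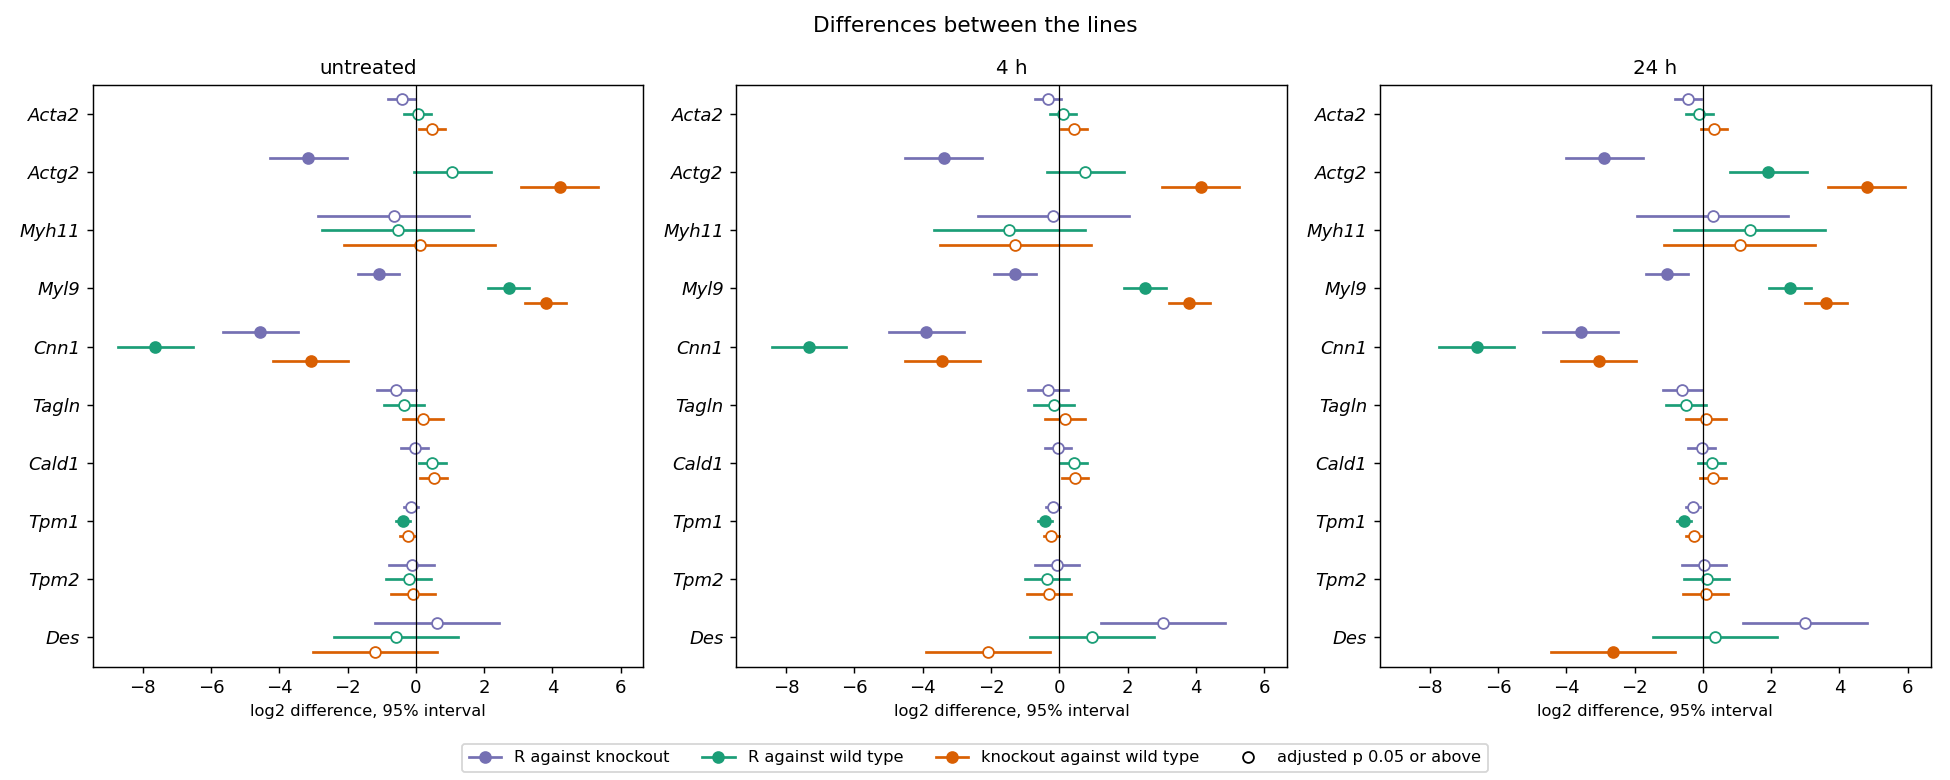
Log2 difference between lines with its 95% interval for each gene, in untreated cells and at 4 h and 24 h after 10 Gy, for line R against the knockout, line R against the wild type and the knockout against the wild type; filled points have an adjusted p below 0.05. Myl9 lies to the right of 0 and Cnn1 to the left of 0 in both comparisons with the wild type at all times.

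No gene of the set was called after irradiation. In each of the 6 comparisons with untreated cells 0 of 10 genes were called by limma, where 0.978%, 0.368% and 3.25% of all genes were called at 4 h in line R, the knockout and the wild type, and 0%, 0% and 0.0495% at 24 h. At an unadjusted p below 0.05 the count was 0 of 10 in 5 comparisons and 1 of 10 in line R at 24 h. Over all genes the share at that unadjusted p was 14.7%, 13% and 17% at 4 h and 4.56%, 5.85% and 9.59% at 24 h, in line R, the knockout and the wild type. The count was 0 under every alternative as well. For the 7 genes above the background level on all 27 arrays, the 42 differences ran from -0.45 to 0.39, and their 95% intervals reached from -1.58 to 1.52. Actg2 set those outer limits.

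The brighter genes were bounded more closely. The 6 intervals of Tpm1 lay between -0.30 and 0.31, those of Acta2 between -0.47 and 0.45, those of Cald1 between -0.38 and 0.63, and those of Myl9 between -0.76 and 0.84. Tagln intervals lay between -0.62 and 0.86 and those of Tpm2 between -0.85 and 0.78. A change of 2-fold, which is 1 on the log2 scale, lies outside all of these intervals. They rest on 1 estimate of spread shared by the 9 groups, and line R varied more than the other lines. Over its 9 arrays the log2 standard deviation of Tagln was 0.49, against 0.12 in the knockout and 0.20 in the wild type. That of Tpm2 was 0.52, against 0.20 and 0.23. For these genes a change in line R is bounded less closely than the intervals read.

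The 1 gene with an unadjusted p below 0.05 was Cnn1 in line R at 24 h, where it read 17.3, 8.87 and 32.6, against 6.96, 10.7 and 3.82 in untreated line R. All 6 readings were under the background level, so no fold is given (adjusted p = 0.94). Between 24 h and 4 h, 0 of 30 differences passed by limma. Over all genes 1.57%, 0.00550% and 2.60% were called in line R, the knockout and the wild type. The 1 difference with an unadjusted p below 0.05 was Cnn1 in line R, under the background level at both times. At that unadjusted p the shares over all genes were 15.6%, 8.22% and 15.5%, in the same order of lines. Interaction values compare the responses of a pair of lines, and 0 of 60 passed by limma or had an unadjusted p below 0.05 (lowest adjusted p = 0.99). Over all genes at most 0.0165% were called in any of the 6 interactions, and 0.0110%, 0.00550% or 0% in the others. Between 2.95% and 5.95% of all genes had an unadjusted p below 0.05 in these interactions.

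**Figure D3:**
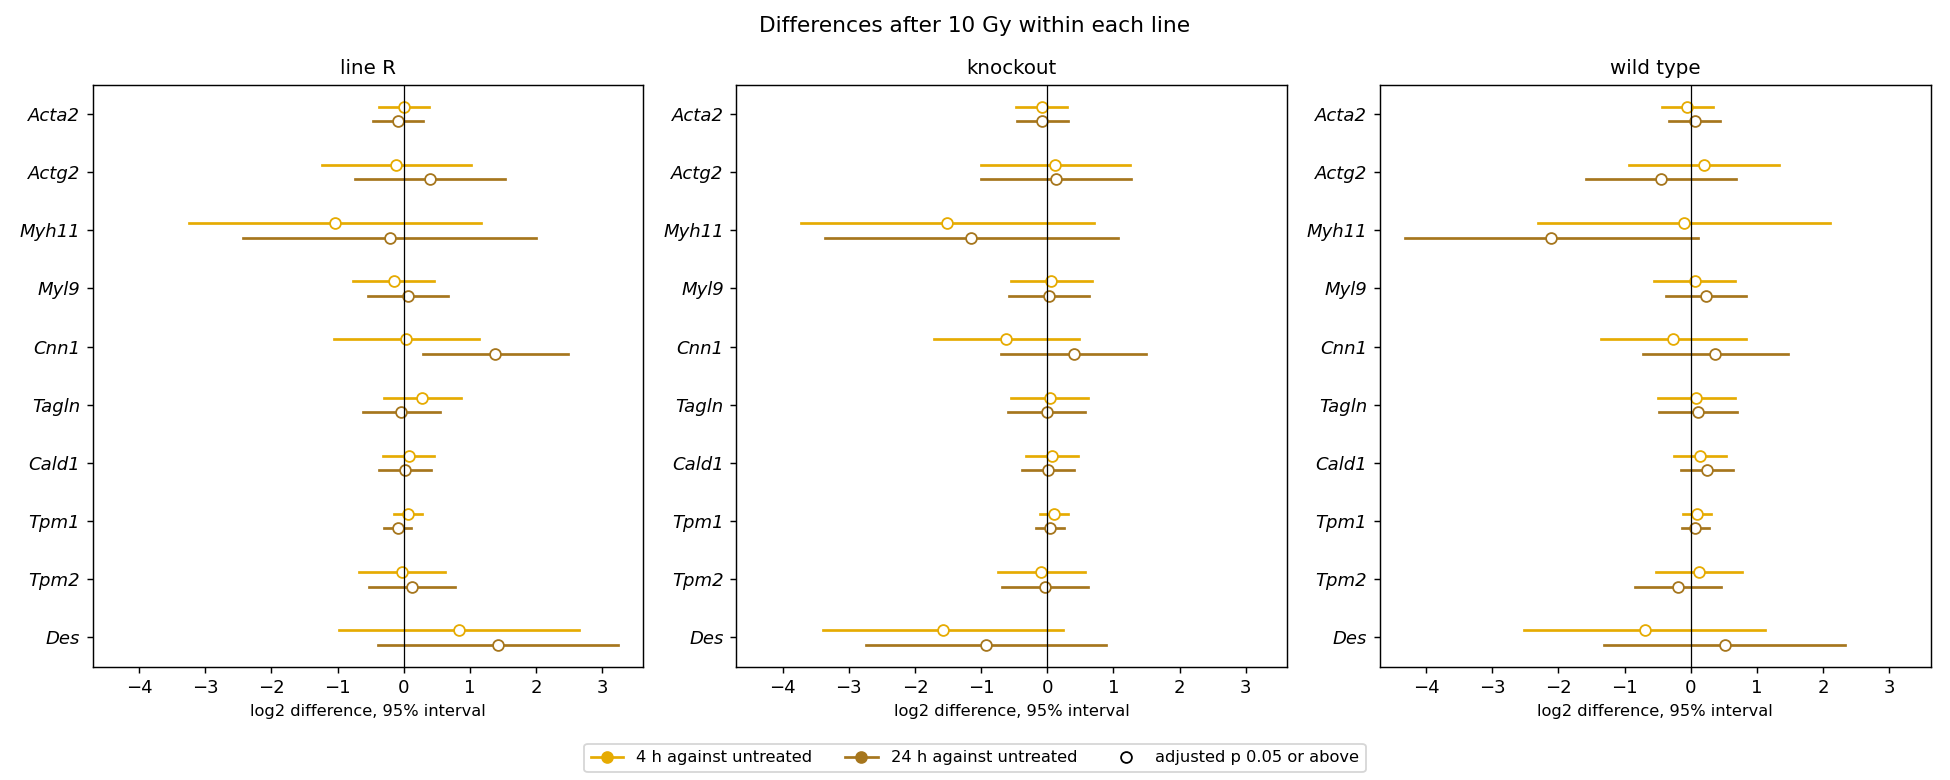
Log2 difference between irradiated and untreated cells with its 95% interval for each gene, by line, at 4 h and at 24 h; open points have an adjusted p of 0.05 or above. All points are open, and the intervals of Myh11 and Des are the widest, followed by those of Actg2 and Cnn1.

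How much of each gene's variation followed the line differed within the set. The line accounted for 96.4% of the variance of Myl9 over 27 arrays, 94.4% for Cnn1, 90.7% for Actg2 and 81.3% for Tpm1. It accounted for 52.4% for Acta2, 50.7% for Cald1 and 46.2% for Des. For Tagln the share was 32.9%, near the median of 33.9% over 10772 genes above the background level, and for Tpm2 it was 3.71%. Time within a line held 0.244% for Myl9 and at most 7.09% among the 7 genes above background on all arrays.

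**Figure D4:**
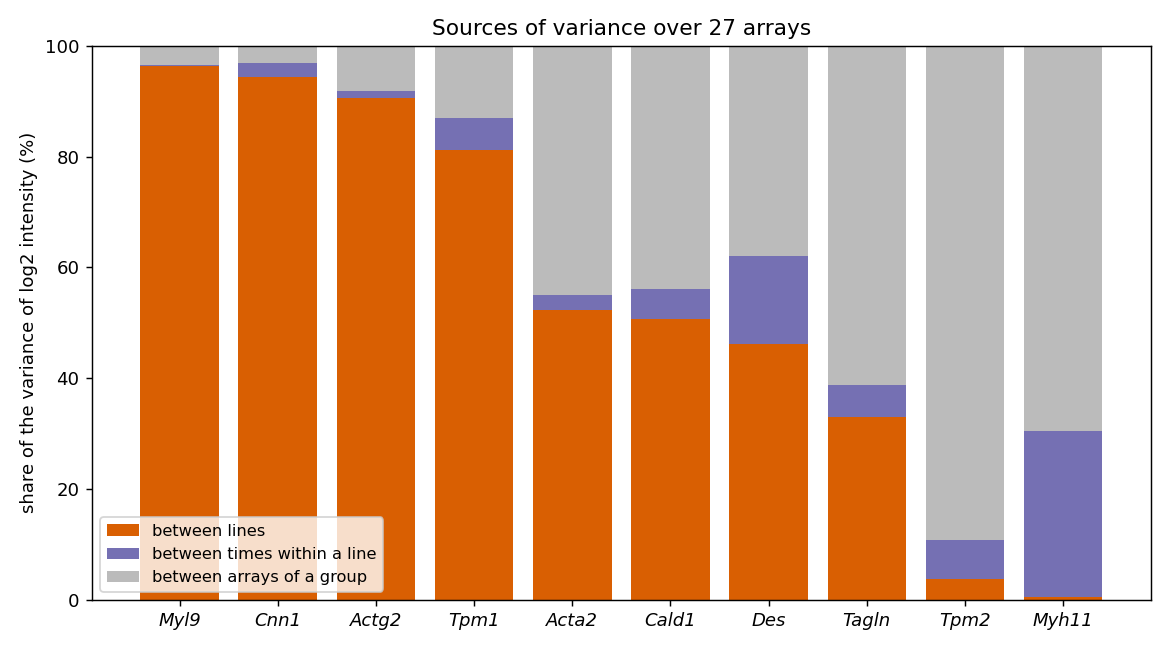
Share (%) of the variance of log2 intensity over 27 arrays that lies between lines, between times within a line and between arrays of 1 group, for each gene, in falling order of the share between lines. Myl9, Cnn1, Actg2 and Tpm1 are mostly line, while 89.2% of the variance of Tpm2 lies between arrays of a group.

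Much of the spread within groups sat on the 5 arrays whose control ratios stood apart. Relative to the other 2 arrays of its group, Actg2 was higher on 5 of 5 (0.68 to 1.69), Tagln on 5 of 5 (0.10 to 1.16), Tpm2 on 5 of 5 (0.01 to 1.27) and Cald1 on 5 of 5 (0.15 to 0.59). Acta2, Cnn1 and Myl9 were higher on 4 of 5. Probe sets of Tpm1, and those of Des, went opposite ways. A second, nearly as bright Tpm1 probe set was lower on 5 of 5 (-1.24 to -0.32) and a dimmer one higher on 5 of 5 (0.48 to 0.97). The brighter Des probe set was higher on 5 of 5 (0.43 to 2.50). The other, above the background level on 1 of 27 arrays, was higher on 0 of 5 (-1.99 to -0.07). A dim Cald1 probe set was higher by 1.80 to 3.27, the same direction as the brightest. The part of RNA quality in these values was not tested. Each untreated group held 1 such array, and the called untreated differences of Actg2, Cnn1, Myl9 and Tpm1 passed the threshold without them.

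**Figure D5:**
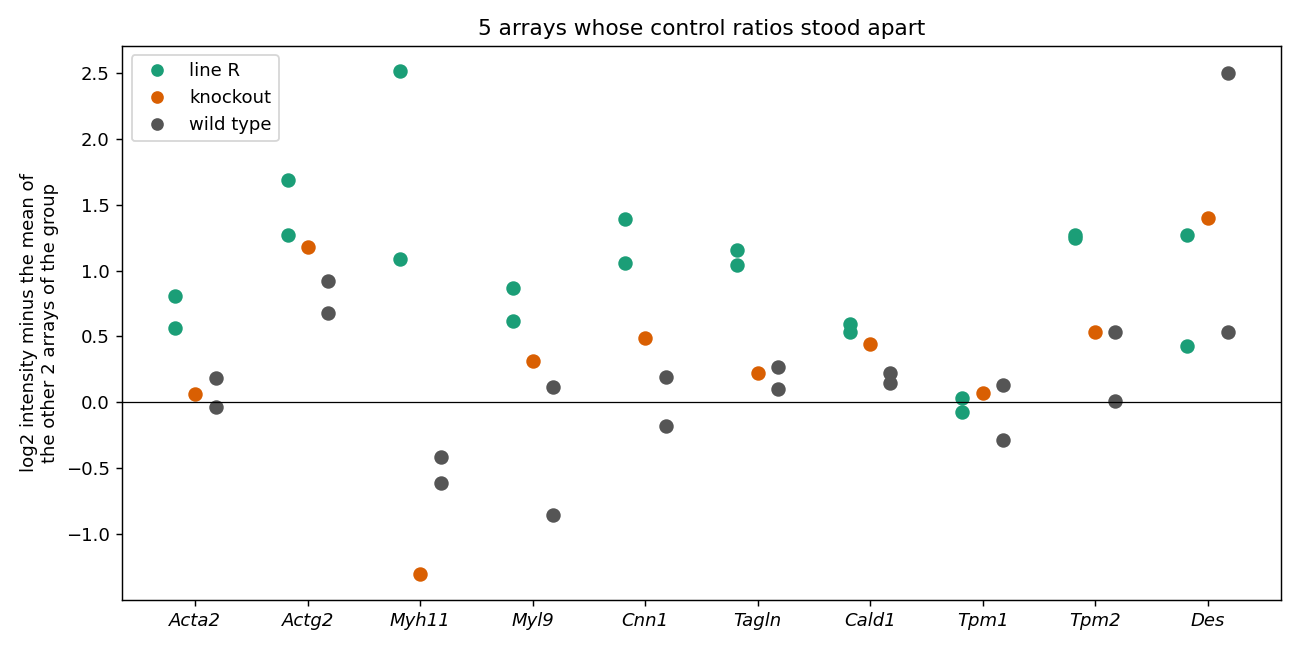
Log2 intensity on each of the 5 arrays whose control ratios stood apart, minus the mean of the other 2 arrays of the same group, by gene and line. Actg2, Tagln, Tpm2, Cald1 and Des lie above 0 on all 5, and the line R points are the high ones for Acta2, Actg2, Tagln and Tpm2.

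Known regulators of the set were read beside it. Srf, the serum response factor gene, averaged 778 in line R, 936 in the knockout and 854 in the wild type over 9 arrays each. Its cofactor genes averaged 1139, 1016 and 1839 for Mrtfa and 1517, 1478 and 1820 for Mrtfb in the same order. Of these 3 regulators none passed limma's test in untreated cells (adjusted p = 0.19 to 0.96). Myocd, the gene of myocardin, was under the background level on all 27 arrays.

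Among 20 genes of serum response factor, myocardin and transforming growth factor beta control, 9 were called in the untreated knockout against the wild type (4 higher, 5 lower, median -0.19), where 17.6% of all genes were called and the median over all genes was -0.00. Mef2c, a muscle transcription factor, read 207 in the knockout and 33.1 in the wild type (2.65 ± 0.51, adjusted p = 0.00083). Tgfb1, a growth factor that induces smooth muscle actin, read 603 in the knockout and 269 in the wild type (1.17 ± 0.33, adjusted p = 0.016). On the lower side, Klf4, a factor that represses smooth muscle genes, read 165 in the knockout and 851 in the wild type (-2.37 ± 0.24, adjusted p = 5.1e-07). Gata6, a factor of vascular smooth muscle, read 21.8, under the background level, against 2094 in the wild type (adjusted p = 6.3e-08). Also lower were the receptor gene Tgfbr1 (-0.70 ± 0.16, adjusted p = 0.0033), Smad3 (-1.04 ± 0.30, adjusted p = 0.021) and Tead4 (-1.38 ± 0.45, adjusted p = 0.04). The remaining higher genes were Tgfb1i1 (0.93 ± 0.26, adjusted p = 0.015) and Notch3 (0.82 ± 0.28, adjusted p = 0.046). In line R against the knockout 1 of the 20 was called, the receptor gene Tgfbr2, which read 5605 in line R and 3447 in the knockout (0.70 ± 0.16, adjusted p = 0.014). Over all genes 3.79% were called there, and the median was -0.01 in the list and 0.05 over all genes.

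Of 28 measured genes of the rest of the smooth muscle contractile apparatus, 10 were called in the untreated knockout against the wild type (6 higher, 4 lower, median -0.04), against 17.6% of all genes. Of the 6 higher genes Pln, which encodes phospholamban, was under the background level on all arrays of both groups, and its order is not read. Ppp1r14a, an inhibitor of myosin phosphatase, read 214 in the knockout and 2.61, under the background level, in the wild type (adjusted p = 3e-05). Csrp2, a protein of smooth muscle cytoskeleton, read 2710 in the knockout and 1350 in the wild type (1.01 ± 0.13, adjusted p = 1e-05). Synpo2 read 81 in the knockout and 16.1, under the background level, in the wild type (adjusted p = 0.0063). On the lower side, Ppp1r12b read 139 in the knockout and 595 in the wild type (-2.10 ± 0.25, adjusted p = 3.1e-06). Smtn, which encodes smoothelin, read 576 in the knockout and 1889 in the wild type (-1.71 ± 0.28, adjusted p = 0.00018). Crip1 read 1510 in the knockout and 14600 in the wild type (-3.27 ± 0.29, adjusted p = 7.4e-08). Mylk, the kinase that phosphorylates the Myl9 product, read 313 in the untreated knockout and 555 in the wild type (-0.83 ± 0.31, adjusted p = 0.072). In line R against the knockout 1 of the 28 was called, against 3.79% of all genes. This was Fhl1, at 636 in line R and 1824 in the knockout (-1.52 ± 0.38, adjusted p = 0.028).

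Of 13 non-muscle counterparts of the set, which are expressed in most cells, 1 was called in the untreated knockout against the wild type, where 17.6% of all genes were called (median 0.04 against -0.00 over all genes). This was Tpm4, a non-muscle tropomyosin, at 20000 in the knockout and 13280 in the wild type (0.59 ± 0.15, adjusted p = 0.0077). Actb, the beta actin gene, averaged 27390 in line R, 29060 in the knockout and 30880 in the wild type, and Actg1, the gamma cytoplasmic actin gene, 29570, 29770 and 29060 in the same order.

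Markers of other cell types were counted beside the set. All 14 fibroblast markers lay above the background level on every array of the knockout and the wild type, and 13 of 14 on every array of line R. Their summed intensity ran from 131800 to 191200 in line R, 135800 to 187500 in the knockout and 109400 to 170100 in the wild type. Among them 4 were called in line R against the knockout (1 higher, 3 lower), where 3.79% of all genes were called, and 5 in the knockout against the wild type (2 higher, 3 lower), where 17.6% were called. The higher ones were Postn, which encodes periostin, at 16200 in the knockout and 4062 in the wild type (adjusted p = 2e-05), and Thy1, a surface marker of fibroblasts, at 12080 in the knockout and 3349 in the wild type (adjusted p = 1.2e-05). Dcn, which encodes decorin, read 1206 in untreated line R, 4425 in the knockout and 14620 in the wild type. Of 16 striated muscle markers 10, 8 and 7 lay under the background level on all arrays of line R, the knockout and the wild type, and their sum ran from 718 to 1421, 562 to 1228 and 365 to 662. Tnnt2, cardiac troponin T, was the 1 called in the knockout against the wild type (274 against 61, adjusted p = 0.017).

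Of 8 pericyte markers 5 were called in the knockout against the wild type (3 higher, 2 lower), against 17.6% of all genes. Most of these lay near the background level. The higher ones were Notch3, Anpep (48.8 against 11.8) and Rgs5 (45.5 against 7.33). Both group means of Rgs5 were under the background level, and its order is not read. The lower ones were Cspg4 (44.6 against 346) and Kcnj8 (7.21 against 62.9). Their summed intensity ran from 2328 to 5702 in line R, 3256 to 7004 in the knockout and 2058 to 4872 in the wild type. Epithelial markers summed to 196 to 365 in line R, 183 to 361 in the knockout and 223 to 488 in the wild type over 9 genes, and endothelial markers to 107 to 179, 96.2 to 184 and 297 to 737 over 8 genes. Krt8, an epithelial marker, read 14.4 in the untreated knockout, under the background level, and 76.5 in the wild type (adjusted p = 0.029). Kdr, an endothelial receptor gene, read 25.7 in the knockout, under the background level as a group mean, and 287 in the wild type (adjusted p = 1e-04). The part of a mixture of cells in the levels of the contractile genes was not tested. Among smooth muscle markers, Myh11 and Myocd were under the background level on every array. Acta2, Actg2, Tagln and Smtn lay above it on every array, and Cnn1, Des and Lmod1 on part of the arrays.

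Of 10763 other genes above the background level, those whose log2 level followed Actg2 most closely over the 27 arrays were Galnt18 (Pearson r = 0.941), Rab11a (0.933) and Stk24 (0.930). For Acta2 they were Ptprd (0.847), Pdha1 (0.841) and Bmp1 (0.832), and for Tagln they were Hacd1 (0.892), Skil (0.868) and Rab7 (0.845). These arrays share lines and the 5 arrays with control ratios apart, and the values only describe likeness. Galnt18, a glycosyltransferase gene, averaged 240 in line R, 554 in the knockout and 107 in the wild type, the order seen for Actg2.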

How the data were processed

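The authors deposited 1 table of linear intensity values for 45101 probe sets on 27 Affymetrix arrays, scaled to a trimmed mean of 500.003. RMA and GCRMA appear in the submitters' processing notes, and which of them, if either, gave these values is not given in the sources used here. Array medians ran from 54.43 to 80. Intensities have no counting depth, so 3 arrays per group limit the precision. Groups were taken from titles, because 6 irradiated samples of the wild type carry a description as untreated. Intensities were log2-transformed with no offset. Control probe sets (64) were left out, and each gene kept its brightest probe set. Contrasts were fitted with limma 3.58.1 in R 4.3.3 (9 group means, 18 residual degrees of freedom) and adjusted by Benjamini-Hochberg within a contrast. The fit was tested on simulated data. Where a group lay under the background level of 48.3 on all arrays, folds are bounds, and the p values beside them test the readings and not the bounds. Promoter windows are from RefSeq, GRCm38.p6. The members and gene lists were chosen with earlier results of these data known. Genes named beside the members were the regulators Srf, Mrtfa, Mrtfb, Myocd, Actb, Actg1 and Mylk, up to 4 list genes each way with the largest called difference in untreated knockout against wild type or line R against knockout, and the 3 genes most correlated with Actg2, Acta2 and Tagln. The text uses part of these, and it also names further genes of the regulator and smooth muscle marker lists. Replicate numbers did not pair the arrays (108 pairs, correlation of deviations from group means -0.645 to 0.718, median 0.0208), so a block was an alternative. Further alternatives were quantile normalization, equal array medians, an offset of 50 before log2, averaging each gene's probe sets, testing single probe sets, a trended prior variance, dropping dim genes, fitting each comparison on its own arrays, and leaving out the 5 arrays with control ratios apart or each array in turn.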

Additional observations from a re-analysis of the deposited data

How the results depend on the processing

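No called difference turned its direction under 10 alternatives or 27 fits that left out 1 array each. Counts of called genes were 3 for line R against the knockout, 3 for line R against the wild type and 3 for the knockout against the wild type, all untreated. Without the 5 arrays whose control ratios stood apart they were 5, 5 and 5, where 3.81%, 21.7% and 20.8% of all genes were called. On the 6 compared arrays only, the first was 0 and the second was 2, where 16 and 1127 of 18193 genes were called. In the first, 3 genes of the set had an unadjusted p below 0.05, as did 1840 of all genes. With equal array medians the last was 5, and this scaling moved the median of all genes by 0.22 there, 0.12 for line R against the wild type and -0.10 for line R against the knockout. With the replicate number as a block the counts were 2, 3 and 3, and the calls lost were Myl9 in line R against the knockout, untreated (adjusted p = 0.054) and at 24 h (adjusted p = 0.05, just over the threshold before rounding); the block changed no other call. Leaving out 1 array gave 2 to 3, 2 to 4 and 3 to 4. The 6 counts of genes called after irradiation were 0 throughout, 0 to 0 without any 1 array. Of 240 single differences without the 5 arrays, 224 kept their side of the threshold and 16 crossed it to become called. Of 1800 differences with 1 array left out, 1772 kept their side, 20 lost the call and 8 gained it.

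Arrays of 3 per group, 1 line per genotype and an unknown summary method limit these values. Readings under the background level carry no order, which touches Myh11 throughout, Cnn1 in line R and Des in the knockout. Cause was not tested for any value that moved with a setting.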
